A study of Mus musculus with 13 samples.

Results

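The contractile genes of the mammary myoepithelium were examined in total RNA from mammary tumors that overexpress TSG101 and from normal mammary glands. The list holds 10 genes chosen by symbol, namely Acta2, Actg2, Myh11, Mylk, Myl9, Cnn1, Tagln, Oxtr, Lmod1 and Smtn, and all 10 were present among the 15213 genes of the table. Their levels were set against those of Krt5 and Krt14, the keratins of the basal cell layer. In short, 8 of the 10 genes were lower in every tumor than in every gland, while both keratins were higher in every tumor than in every gland. Over all 15213 genes these patterns were found in 10.3% and 11.4%.

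The 10 tumors came from 6 MMTV-tTA TetO-Tsg101 double transgenic females, labelled MtTA Teto-TSG101wt, of which 3 gave 1 tumor, 2 gave 2 tumors and 1 gave 3 tumors. The 3 glands came from 3 wild-type FVB females without either transgene. In the double transgenic females, the mouse mammary tumor virus promoter drives the tetracycline transactivator tTA, and tTA switches on the TetO-Tsg101-IRES-luciferase transgene in the absence of doxycycline. The study describes this promoter as active in some luminal epithelial cells of glands without TetO-Tsg101, and in basal cells as well in lesions of females that carry it. Neither age nor reproductive stage of the sequenced females is given by the labels. The milk gene Csn2 lay between 56894 and 63624 normalized cpm in the glands, and from 85.1 to 21978 normalized cpm in the tumors, and a difference in stage cannot be told apart from the difference between tumor and gland.

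Myoepithelial cells form the outer, basal layer of mammary ducts and alveoli. They share the contractile machinery of smooth muscle, and they contract when oxytocin released during suckling reaches its receptor, which expels milk. In this machinery calcium and calmodulin activate the myosin light chain kinase, the kinase phosphorylates the regulatory light chain of myosin, and myosin filaments pull on actin filaments. Myoepithelial cells also carry the basal keratins 5 and 14, which they share with the basal cells of stratified epithelia such as skin. Smooth muscle cells of blood vessels express most of these contractile genes too. In whole tissue, fewer cells of a type cannot be told apart from less RNA in each cell.

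Many smooth muscle genes are controlled by serum response factor, which binds a short DNA element known as the CArG box. The RefSeq promoter table (GRCm38.p6) held a window for 7 of the 10 genes. Each window is set on a start of that table, which is not always the outer end of the gene span given below. The windows of Mylk, Oxtr and Krt14 lie wholly inside these spans, and those of Acta2, Myl9 and Cnn1 in part. The 250 bases upstream of each such start were searched on both strands for this element by its name. The same element with 1 G or C in its A/T core was searched too. The second form was added with the sequences of these genes in view. The full element was found in 1 of the 7 windows, that of Myl9, and in 1.47% of all 32851 windows. The form with 1 G or C was found in 2 of the 7, those of Acta2 and Myl9, and in 7.24% of all windows. Neither form was found in the windows of Krt5 and Krt14. Another motif, CATTCC, the core of the element bound by TEAD factors and also searched on both strands, was found in 4 of the 7 windows, those of Acta2, Mylk, Lmod1 and Smtn, in that of Krt14 and in 12.6% of all windows. These were the 3 motifs searched. The windows of Acta2 (chr19:34255374-34255623, minus strand) and Myl9 (chr2:156775214-156775463, plus strand) are shown because they hold the CArG matches, which stand in capitals.
Acta2: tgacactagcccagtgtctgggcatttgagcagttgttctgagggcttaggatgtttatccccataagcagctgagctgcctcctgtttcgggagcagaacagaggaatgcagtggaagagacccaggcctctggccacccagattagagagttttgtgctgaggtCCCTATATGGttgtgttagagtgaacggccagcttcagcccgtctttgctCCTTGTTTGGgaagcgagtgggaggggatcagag
Myl9: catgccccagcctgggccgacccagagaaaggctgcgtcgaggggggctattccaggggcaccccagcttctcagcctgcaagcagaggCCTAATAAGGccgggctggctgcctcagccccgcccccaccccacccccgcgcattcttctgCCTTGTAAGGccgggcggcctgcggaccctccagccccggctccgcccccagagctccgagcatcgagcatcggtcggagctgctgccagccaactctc
In the window of Acta2 the CArG matches start 84 and 34 bases before the start used for the window. In that of Myl9 they start 161 and 99 bases before it. Both matches of Acta2 lie inside the gene span given below, and those of Myl9 lie before it. A match describes the letters only, and binding was not measured.

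Reads assigned to listed genes numbered between 6176269 and 16835397 per tumor library and, per gland library, between 11672487 and 23889042. Values are given as normalized cpm, that is, reads scaled to the effective size of each library. A count of 3 reads, the limit that a count of 0 allows, corresponded to at most 0.683 normalized cpm in any library, and this covers counting error only. Every value of the 10 genes rested on at least 8 reads. Reads of the ribosomal RNA precursor Rn45s took between 0.456% and 27.4% of a tumor library, with the highest share in tumor 9, and up to 4.35% of a gland library. The study showed transgene expression in tumors by immunoblots of HA-tagged TSG101 and by luciferase imaging, which measure protein rather than RNA. The transcript of Tsg101 itself averaged 66.5 ± 15.5 normalized cpm over the tumors (SD, n = 10) against 53.2 ± 7.68 over the glands (SD, n = 3). The log2 fold change, 0.30 (SE 0.20, limma, adjusted p = 0.296), did not pass the test and was -0.77 (adjusted p = 0.0521) with the libraries scaled to epithelial genes and 0.62 (adjusted p = 0.0166) with libraries scaled to their total count alone.

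Tumors and glands were compared with limma on log2(normalized cpm + 1) over all 13 libraries. A gene was called where the Benjamini-Hochberg adjusted p, taken over all genes tested, was below 0.05 and the change exceeded 2-fold. A filter on low genes, with a limit of 5 normalized cpm that most libraries had to exceed, kept 8 of the 10 contractile genes among 11795 tested. Of these 8 genes, 6 were called lower and 0 higher, against a background of 6.99% of all genes tested called lower and 10.2% called higher. Actg2 and Cnn1 were left out by the filter because most tumors were at or under its limit. Since tumors are the majority of the libraries, the filter can remove genes that are low in most tumors. Oxtr was at or under the limit in 6 libraries, all of them tumors. It passed only because the glands, where it was high, exceeded the limit. Without the filter, 8 of 10 were called lower and 0 higher, where the background was 10.1% lower and 10.5% higher. The median log2 fold change was -2.75 over the 10 genes and 0.01 over all listed genes. Together the 10 genes accounted for 0.0222% to 0.0503% of a tumor's reads and 0.208%, 0.250% and 0.0890% of those of glands 1, 2 and 3.

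**Figure D1:**
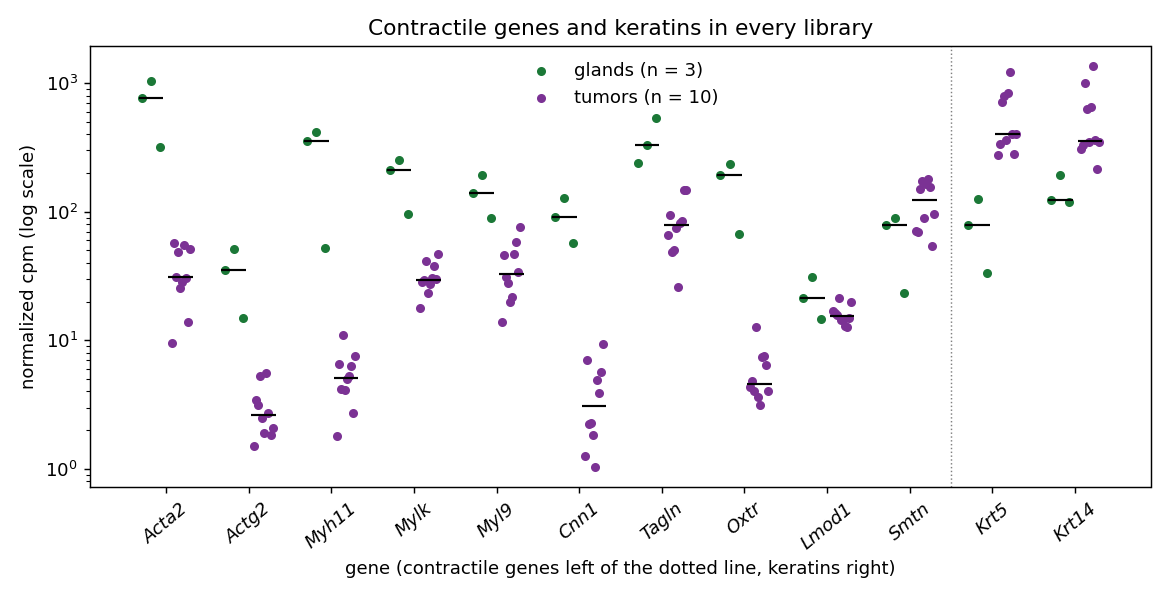
Level of each contractile gene, and of Krt5 and Krt14 to the right of the dotted line, in normalized cpm on a log axis. Each point is a library (3 glands in green, 10 tumors in purple) and bars mark medians. For Acta2, the glands lie between 317 and 1038 and the tumors between 9.60 and 57.1, whereas for Krt5 the tumors, between 275 and 1221, lie above the glands.

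The smooth muscle actins form the thin filaments. Acta2 encodes alpha smooth muscle actin, the usual histological marker of myoepithelium (Entrez 11475; chromosome 19, 34240336 to 34255585). Acta2 was at 762, 1038 and 317 normalized cpm in glands 1, 2 and 3. The tumors spanned 9.60 to 57.1, with a median of 30.9. The lowest gland was 5.56-fold above the highest tumor, so that the groups did not overlap. The log2 fold change of Acta2 was -4.32 (SE 0.49, limma, adjusted p = 1.59e-05), and the means of the groups lay 20.1-fold apart. Actg2 encodes gamma smooth muscle actin (Entrez 11468; chromosome 6, 83512909 to 83536251). Actg2 was at 35.1, 50.9 and 14.99 normalized cpm in the glands, and the tumors ranged from 1.5001 to 5.56 with a median of 2.61. All 10 tumors were below all 3 glands, and without the filter its log2 fold change was -3.03 (SE 0.35, limma, adjusted p = 1.39e-05). Actins are close paralogs, and reads that match several of them could not be reassigned. The skeletal muscle actin gene Acta1 reached 629 normalized cpm in tumor 4 and 95.3 in tumor 10 and was at 4.02 or less in the other libraries, whereas Acta2 in tumors 4 and 10 was at 48.2 and 50.8, within the range of the other tumors. Without these tumors, an alternative chosen after seeing the data, the log2 fold change of Acta2 was -4.48.

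Among the genes of myosin and its activation, Myh11 had the largest fold change of the 10 genes. It encodes the smooth muscle myosin heavy chain, the motor of the thick filaments (Entrez 17880; chromosome 16, 14194527 to 14292188). Myh11 was at 352 and 413 normalized cpm in glands 1 and 2 and at 52.2 in gland 3. In the tumors it ranged from 1.80 to 10.9 normalized cpm, with a median of 5.12. Even gland 3 was 4.77-fold above the highest tumor. Its log2 fold change was -5.05 (SE 0.52, limma, adjusted p = 6.34e-06), and -6.00 without gland 3. Myl9 encodes the regulatory light chain that the kinase phosphorylates (Entrez 98932; chromosome 2, 156775408 to 156781657). The glands were at 140, 192 and 88.6 normalized cpm for Myl9, and the tumors lay between 13.8 and 75.9, with a median of 32.5. Here the groups came close without overlapping, the lowest gland being 1.17-fold above the highest tumor, and the log2 fold change was -1.97 (SE 0.42, limma, adjusted p = 0.00261). Mylk encodes the myosin light chain kinase (Entrez 107589; chromosome 16, 34745199 to 35002436). Mylk was at 211, 254 and 95.3 normalized cpm in the glands, and from 17.9 to 47.0, with a median of 29.6, in the tumors. All tumors were below all glands for Mylk, with a log2 fold change of -2.47 (SE 0.29, limma, adjusted p = 2.09e-05).

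Calponin and transgelin bind the actin filaments of differentiated smooth muscle. Cnn1, which encodes calponin 1 (Entrez 12797; chromosome 9, 22099221 to 22109221), was at 91.0, 127 and 56.8 normalized cpm in the glands, and from 1.04 to 9.34 in the tumors, with a median of 3.07. The gap between the lowest gland and the highest tumor was 6.08-fold. Without the filter the log2 fold change of Cnn1 was -4.35 (SE 0.46, limma, adjusted p = 5.40e-06). Tagln, which encodes transgelin (Entrez 21345; chromosome 9, 45929628 to 45936058), kept a higher level. The tumors lay between 25.8 and 148 normalized cpm for Tagln, with a median of 78.4, below the glands at 241, 330 and 537. Its log2 fold change was -2.24 (SE 0.43, limma, adjusted p = 0.00121). Gland 3 was the lowest gland for 9 of the 10 genes and the highest for Tagln. Exons of Tagln share 1241 bases with the antisense gene Gm48529 and 108 bases with Pcsk7 on the other strand in the GENCODE annotation, and genes on the other strand also overlap exons of Mylk and Smtn. Whether counting used the strand is not given in the sources used here, so reads of such partners could not be set apart.

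Oxtr encodes the oxytocin receptor, through which the myoepithelium receives the signal to contract (Entrez 18430; chromosome 6, 112473683 to 112491035). Oxtr was at 193, 237 and 66.6 normalized cpm in the glands, and from 3.12 to 12.6 normalized cpm in the tumors, with a median of 4.58. The highest tumor, tumor 4, stayed 5.29-fold below the lowest gland. The log2 fold change of Oxtr was -4.52 (SE 0.38, limma, adjusted p = 9.81e-07), and the group means were 28.6-fold apart.

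The remaining genes did not pass the test with the values as deposited. Lmod1 encodes leiomodin 1, which starts the assembly of actin filaments in smooth muscle (Entrez 93689; chromosome 1, 135324813 to 135368065). Lmod1 was at 21.2, 30.8 and 14.6 normalized cpm in the glands, and from 12.7 to 21.4 normalized cpm in the tumors, with a median of 15.4. The groups overlapped, with 4 of 10 tumors below all glands, and the log2 fold change was -0.41 (SE 0.21, limma, adjusted p = 0.162). With the libraries scaled to epithelial genes Lmod1 was called lower (-1.48, adjusted p = 3.14e-05). Smtn encodes smoothelin, an actin-binding protein that also exists in forms outside smooth muscle (Entrez 29856; chromosome 11, 3517522 to 3539292). For Smtn the glands were at 79.0, 89.3 and 23.4 normalized cpm and the tumors between 53.9 and 178, with a median of 123. The groups overlapped, although 7 of 10 tumors were above all glands. The log2 fold change of Smtn was 0.99 (SE 0.43, limma, adjusted p = 0.104), 0.39 without gland 3 and -0.075 with the libraries scaled to epithelial genes, so that its direction rests on the scaling. Reads of the different forms of Smtn were counted together.

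Per kilobase of annotated exon, which allows levels of different genes to be compared, the order of the genes differed between the groups. In the glands Acta2 had the highest mean level, 321 ± 166 normalized cpm per kb (SD, n = 3), followed by Tagln at 186 ± 76.3 and Myl9 at 120 ± 44.3. These neighbours in the order overlapped in their ranges over the glands. Krt14 stood next at 82.1 ± 23.7, then Krt5 at 36.2 ± 21.2, within the spread of Myh11, Oxtr and Cnn1, whose means lay between 33.5 and 35.9 normalized cpm per kb. Lmod1 was the lowest at 5.62 ± 2.06. In the tumors Krt14 and Krt5 led at 315 ± 208 and 255 ± 143 normalized cpm per kb (SD, n = 10), and their ranges overlapped. The highest contractile genes of the tumors were Tagln at 41.3 ± 20.2, Myl9 at 32.3 ± 16.6 and Smtn at 27.4 ± 11.1, with overlapping ranges. Acta2 followed at 15.96 ± 7.73, and Myh11 stood last at 0.716 ± 0.342 normalized cpm per kb.

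The contrast with the basal keratins was the question for which Krt5 and Krt14 were included. Krt5 (Entrez 110308; chromosome 15, 101707069 to 101712905) was at 78.7, 126 and 33.3 normalized cpm in the glands, and from 275 to 1221 normalized cpm in the tumors, with a median of 402. Krt14 (Entrez 16664; chromosome 11, 100203162 to 100207510) was at 122, 192 and 118 normalized cpm in the glands, and from 216 to 1358 in the tumors, with a median of 356. All 10 tumors were above all 3 glands for both, a pattern found in 11.4% of all listed genes, while 10.3% of all listed genes, and 8.53% of those past the filter, showed the opposite pattern of the 8 contractile genes. The log2 fold change of Krt5 was 2.82 (SE 0.47, limma, adjusted p = 4.22e-04). That of Krt14 was 1.73 (SE 0.46, limma, adjusted p = 0.0117), and it was not called without gland 1 (adjusted p = 0.0623) or with the libraries scaled to epithelial genes (0.67, adjusted p = 0.120), where Krt5 was at 1.75 (adjusted p = 4.52e-04).

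**Figure D2:**
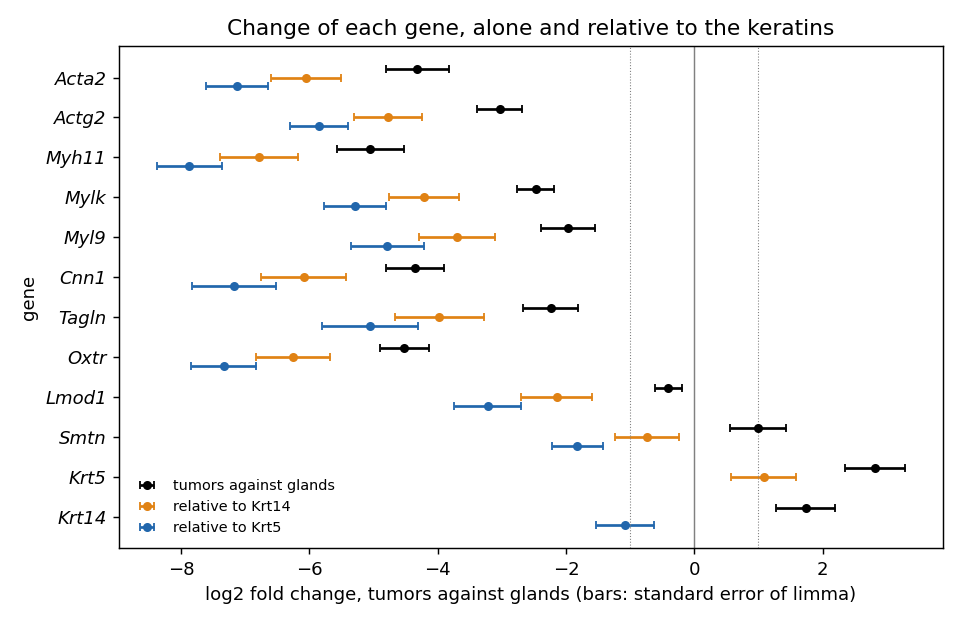
Log2 fold change of each gene between 10 tumors and 3 glands, without the filter, with bars for the standard error of limma and dotted lines at a 2-fold change. Black points are the change of the gene itself, and orange and blue points the change relative to Krt14 and Krt5 in the same library. The black points of 8 contractile genes lie left of -1, those of Lmod1 and Smtn at -0.41 and 0.99, and those of the keratins right of 1.

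In each library the log2 level of every gene was also taken relative to that of Krt14, and these differences were fitted across the table in the same way. In the glands the ratio of Acta2 to Krt14 was 6.23, 5.39 and 2.68, and in the tumors it lay between 0.0314 and 0.173, with a median of 0.0685. The ratio of Oxtr to Krt14 was 1.58, 1.23 and 0.563 in the glands and at most 0.0296 in the tumors. For Myh11, the ratio was 2.88, 2.15 and 0.442 in the glands and at most 0.0218 in the tumors. For these 3 genes no tumor reached the ratio of any gland, which held for 50.4% of all listed genes relative to Krt14. Relative to Krt14, Myh11 changed by a log2 difference of -6.79 (SE 0.60, limma without the filter, adjusted p = 4.18e-09), Oxtr by -6.26 and Acta2 by -6.05. Of the 8 contractile genes past the filter, 7 were called lower relative to Krt14, and 9 of 10 without the filter. These counts have to be read against their background, since 74.6% of all genes tested, and 72.7% without the filter, were called lower relative to Krt14. Setting genes against Krt14 moved every gene by the same amount, so the median log2 difference of -4.09, against -1.72 over all genes tested, adds nothing to the comparison without Krt14.

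Relative to Krt5, all 8 genes past the filter were called lower, where 92.3% of all genes tested were, and without the filter all 10 were, where 92.5% of all listed genes were. Of the 10 genes, Smtn had the smallest differences. Its log2 difference relative to Krt14 was -0.74 (SE 0.50, limma without the filter, adjusted p = 0.170), the groups overlapped in this ratio, and its difference relative to Krt5 was -1.82 (SE 0.39, limma, adjusted p = 2.82e-04). The medians over all listed genes were -1.72 relative to Krt14 and -2.80 relative to Krt5, so the values of Smtn lay above the median gene. Those of Lmod1 were -2.14 and -3.22.

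**Figure D3:**
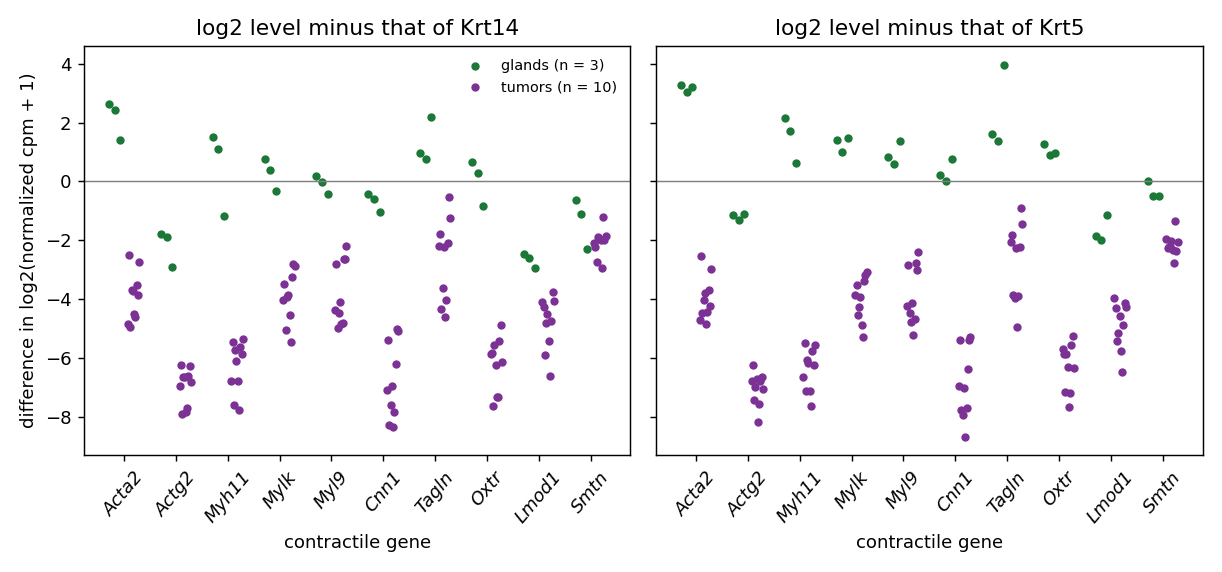
Level of each contractile gene minus that of Krt14 (left) or Krt5 (right) in the same library, as a difference in log2(normalized cpm + 1). Each point is a library, with glands in green and tumors in purple. For Acta2 over Krt14 the glands lie between 1.417 and 2.63 and the tumors between -4.95 and -2.51, and Smtn over Krt14 is the only panel entry in which the groups overlap. Tumors lay below all glands in 50.4% of all listed genes relative to Krt14 and in 75.3% relative to Krt5.

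Other genes of the basal layer were taken from a list of 20 markers, all of which passed the filter. Of these, 9 were called higher and 1 lower, where 10.2% of all genes tested were higher and 6.99% lower. Their median log2 fold change was 0.80. With the libraries scaled to epithelial genes 5 were higher and 5 lower, where 3.68% of all genes were higher and 53% lower. The largest rises were those of the basal keratin gene Krt17 (log2 fold change 5.21, adjusted p = 1.44e-06, limma), of Col17a1, which encodes a collagen of the hemidesmosome (3.78, adjusted p = 3.26e-06), and of Krt5. Itga6, the gene of integrin alpha 6, was the 1 lower gene (log2 fold change -1.15, adjusted p = 0.0183, limma). No basal marker was called lower with libraries scaled to their total count alone, without the female of tumors 8, 9 and 10, or with the replicate block. Keratins 5 and 14 are also made by squamous epithelium. Of 14 squamous markers, 12 passed the filter and all 12 were called higher, with a median log2 fold change of 4.61, led by Krt6a, Sprr1a and Krtdap. Most of them were at or under 5 normalized cpm in every gland and passed the filter only through the tumors. Without the filter 13 of the 14 were called higher, where 10.5% of all listed genes were, and the median was 3.87. The summed level of the squamous markers spanned 665 to 4895 normalized cpm over the tumors and 17.3 to 51.4 over the glands, and the part of squamous cells in the keratin levels was not tested.

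A wider list of the contractile apparatus and its control, from actin crosslinkers and tropomyosins to phosphatase subunits, held 59 genes of the table. Of these, 48 passed the filter, 2 were called lower and 0 higher, where the background was 6.99% lower, and their median log2 fold change was -0.25. The genes called lower included Cav1, which encodes the coat protein of caveolae (log2 fold change -2.88, adjusted p = 2.65e-06, limma). Cav1 is also abundant in adipocytes. All 10 adipocyte markers were called lower without the filter, and their summed level spanned 42.3 to 441 normalized cpm over the tumors and 3714 to 11236 over the glands, and its part in the fall of Cav1 was not tested. Without the filter 8 of the 59 genes were called lower and 0 higher, which is near the background of 10.1% lower and is no result about the list. Named after their values were seen, the 6 called only without the filter were Synm and Synpo2, which encode proteins of intermediate filaments and of the Z-disc, the potassium and calcium channel genes Kcnmb1, Kcnma1 and Cacna1c, and the phospholipase gene Plcb4. Leaving out gland 3 raised the count past the filter to 7.

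The transcriptional regulators of the wider list that could be tested did not pass the test. Myocd, a further regulator on that list, was absent from the values as deposited and was not tested. Also named after their values were seen, Srf, the gene of serum response factor, spanned 22.1 to 50.1 normalized cpm over the tumors, with the glands at 63.4, 65.5 and 23.9 (log2 fold change -0.38, adjusted p = 0.421, limma). Its coactivator genes Mrtfa and Mrtfb had log2 fold changes of -0.23 (adjusted p = 0.565) and -0.08 (adjusted p = 0.844). The tropomyosin genes Tpm1 and Tpm2, which have smooth muscle and other forms, had log2 fold changes of 0.35 (adjusted p = 0.227) and -0.58 (adjusted p = 0.271). The tropomyosin gene Tpm4 was at 147, 178 and 152 normalized cpm in the glands, and all 10 tumors, from 262 to 399, lay above them. Its log2 fold change of 0.9967 (limma, adjusted p = 3.72e-04) stayed just under the 2-fold limit of a call. Genes that did not pass the test are not shown to be equal by it. The scaling of the libraries matters for this list, since 36 of the 48 genes were called lower with each library scaled to epithelial genes. Under that scaling 53% of all genes tested were called lower, and the median change over all genes (log2) became -1.05.

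Vascular smooth muscle is another source of these transcripts. Of 12 markers of vascular mural cells, the pericytes and smooth muscle cells of vessels, 9 passed the filter. Of these 9, 1 was called lower and 1 higher, near the shares of 6.99% and 10.2% over all genes tested. This is no result about the list. These shares are also the background of the other counts past the filter in this paragraph, unless another is named. Abcc9, which encodes a potassium channel subunit, was called lower (log2 fold change -1.55, adjusted p = 0.00132, limma), and Ndufa4l2, a mitochondrial gene induced by hypoxia, was called higher (1.75, adjusted p = 0.0185). Without the filter Vtn, the gene of vitronectin, was also called lower (log2 fold change -2.46, adjusted p = 9.44e-06, limma), and it was lower in all 10 tumors than in all 3 glands. The median log2 fold change of the list was -0.64, and with the libraries scaled to epithelial genes, where the background was 53% of all genes lower and 3.68% higher, 7 of the 9 were called lower and 0 higher. The summed level of the 12 markers spanned 159 to 437 normalized cpm over the tumors and was at 397, 388 and 228 in the glands, so that the groups overlapped, and none of these markers was at 0 in any library. Endothelial markers were called lower in 8 of 10 cases, led by Cdh5, Cldn5 and Kdr, with a median log2 fold change of -1.94. Fibroblast markers were called lower in 7 of 12 cases and higher in 1, with the largest falls in Col3a1, Col1a1 and Lum, a rise in Fbln2 and a median of -1.51. The call of Fbln2 was lost with tumors of the same female summed, without the female of tumors 8, 9 and 10, and without tumors 4 and 10. It was also lost with epithelial scaling and with the replicate block. Luminal epithelial markers had 3 higher genes, Krt7, Cldn4 and Elf3, and 1 lower, Elf5, among 14 that passed, with a median of 0.10. The 1 lower gene of 14 is near the share of 6.99% over all genes tested, of which 10.2% were higher. Against the same background of 53% lower, 1 luminal marker was higher and 6 of the 14 were lower when scaled to epithelial genes. The call of Elf5 depended on the setting, as no luminal marker was called lower in the fit with a correlation among tumors of the same female, with the replicate block, with libraries scaled to their total count alone, or without gland 1 or gland 2. The part of these cell types in the fall of the contractile genes was not tested.

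**Figure D4:**
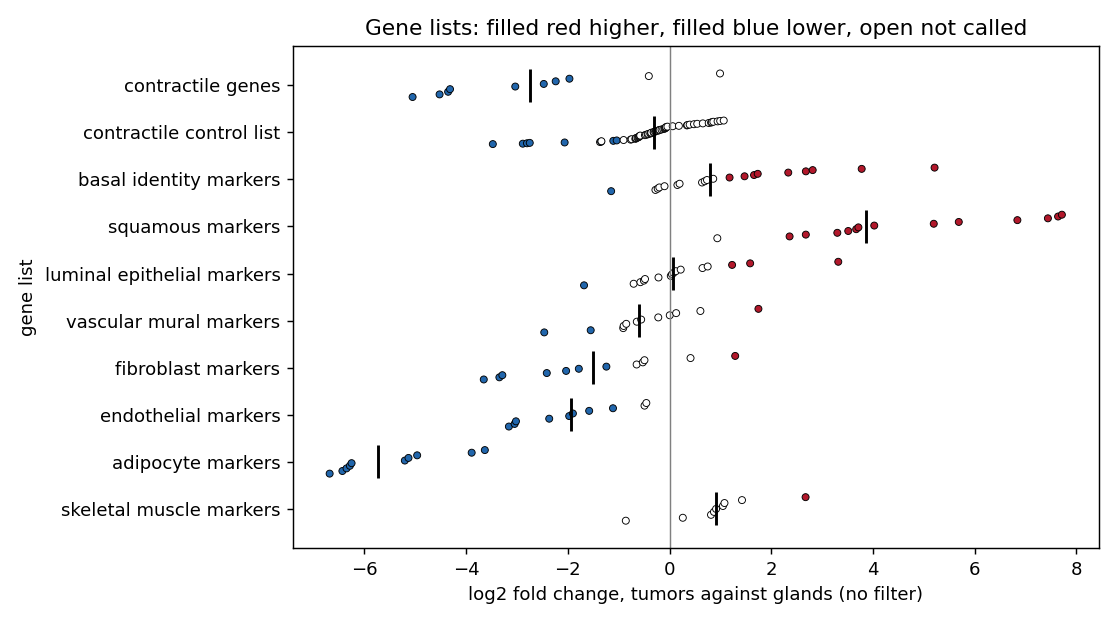
Log2 fold change between tumors and glands, without the filter, for every listed gene of 10 gene lists. Each point is a gene, filled red where called higher, filled blue where called lower and open where not called, and vertical bars mark list medians. The median of the contractile genes is -2.75, that of the wider contractile control list -0.31, that of the vascular mural markers -0.60 and that of the basal identity markers 0.80.

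The tumors also differed among themselves. Tumor 1 was the lowest for 5 of the 10 genes, namely Acta2, Actg2, Myh11, Mylk and Myl9, and tumor 6 was the lowest for Cnn1, Tagln and Oxtr. Tumor 10 was among the 3 highest tumors for 7 genes and tumor 4 for 6. Tumor 4 had the highest level of Myh11, Oxtr and Lmod1, and tumor 10 that of Mylk, Myl9 and Cnn1. These are also the tumors in which skeletal muscle markers were abundant, with summed levels of 2334 and 470 normalized cpm against 17.8 to 31.4 in the other tumors, and their part in these levels was not tested. Tnni2, a troponin gene, was the skeletal muscle marker called higher in the tumors as a whole, out of 2 that passed the filter, where 10.2% of all genes tested were. It was under 5 normalized cpm in every gland and passed the filter through the tumors. The call was lost with a pseudocount of 5, with the libraries scaled to epithelial genes, without the female of tumors 8, 9 and 10, and with the replicate block. Without tumors 4 and 10 the log2 fold changes of Myh11 and Oxtr were -5.24 and -4.61.

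Tumors of the same female were not alike for all genes. On the scale of log2(normalized cpm + 1), Acta2 spanned 2.45 over all tumors, 0.15 between tumors 5 and 6, 0.85 between tumors 2 and 3, and 1.80 among tumors 8, 9 and 10. Tagln spanned 2.48 over all tumors and 1.51 between tumors 5 and 6. Lmod1 had the smallest span, 0.71 over all tumors. After summing reads over the tumors of each female, so that 6 females were compared with 3, the log2 fold changes of Acta2, Myh11 and Oxtr were -4.25, -5.02 and -4.41 (adjusted p = 3.34e-04, 3.31e-04 and 8.31e-05, limma).

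**Figure D5:**
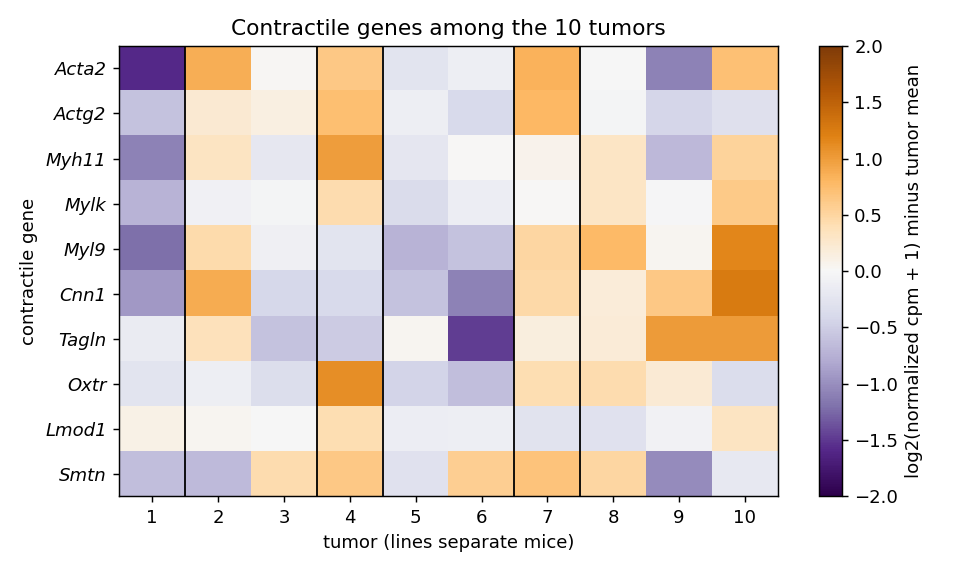
Level of each contractile gene in each tumor, as log2(normalized cpm + 1) minus the mean of the 10 tumors, with vertical lines between females. Orange marks a level above that mean and purple below it. Tumor 1 is purple for Acta2, Myh11, Mylk, Myl9 and Cnn1, tumor 6 is darkest for Tagln, and tumor 4 is orange for Myh11 and Oxtr.

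The genes whose levels followed the contractile genes most closely among the 10 tumors were looked up among the other 11787 genes tested. Likeness was measured as the mean absolute difference in z-score from the mean z-score of the 8 contractile genes past the filter, whose own differences lay between 0.380 for Mylk and 0.789 for Tagln. The 5 closest genes were Creld1 at 0.368, Tubgcp6 at 0.386, Meltf at 0.393, Rcn3 at 0.399 and Adcy9 at 0.416, where the median over all genes was 0.909. Only Rcn3 among these 5 was called in the comparison with the glands, where it fell by 1.45 on the log2 scale (limma, adjusted p = 0.00722). All 5 are genes outside the contractile lists. This order was read from 10 tumors of 6 females.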

How the data were processed

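Total RNA of 10 tumors and 3 glands was sequenced as paired-end reads. Per the methods and the labels, the authors aligned to mm10 in Rsubread, summarised reads over genes by featureCounts and applied edgeR's normalization. The deposited signal values are counts scaled by effective library size, here called normalized cpm. Divided by what 1 read is worth in its library, 100% came out whole (tolerance 0.01 of a read), which recovered the read counts. The methods filter low genes at 5 cpm, whereas the table still holds such genes, and the filter was applied here to the normalized values. It left 11795 genes and removed 3418.

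Groups were taken from the sample labels. Because the values were normalized, limma 3.58.1 (R 4.3.3) with a trend on mean expression was used on log2(normalized cpm + 1), with condition as the only term and two-sided tests. The added 1 understates the change of low genes. Levels are mean ± SD, and standard errors are those of limma. Alternatives were other pseudocounts, no filter, edgeR 4.0.16 and DESeq2 1.42.0 on the recovered counts, other scalings, fits for tumors of the same female, a replicate block and leaving out each library. The test was checked on simulated data. Named genes were the 10 members, Krt5, Krt14, Tsg101, up to 3 called genes per direction of each list with the largest change, and the 5 genes nearest in z-score. Members and lists (contractile control, basal, squamous, luminal, mural, fibroblast, endothelial, adipocyte and skeletal muscle) were chosen with earlier results of these data known. The labels name a UNMC core and Novogene as sequencing sites without saying which libraries each made, so any difference in site between the groups cannot be told apart from the groups, and p-values measure the spread between these samples. Exon lengths came from GENCODE M21 (GRCm38), coordinates from RefSeq GRCm38.p6, matched by Entrez ID for 15106 of 15213 genes, and promoter windows from the RefSeq table of the same build. The values of 1 gene that the rule names are not reported here.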

Additional observations from a re-analysis of the deposited data

Results flagged for a closer look

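Among 43 named genes, 1 had a tumor far from the others by Dixon's criterion at 95%. The fibroblast matrix gene Lum was at 0.472 normalized cpm in tumor 6, whereas the nearest tumor was at 5.28. Chance flags about 1 in 20 such groups. No contractile gene was flagged in this way.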

How the results depend on the processing

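Between 4 (replicate block) and 8 (no filter) contractile genes were called lower with 1 choice changed at a time, and 0 were called higher in any of these fits. The count without the filter was 9 with the libraries also scaled to epithelial genes. Leaving out single libraries kept the count at 6, and at 8 without the filter. The counts relative to Krt14 and Krt5 lay between 6 and 9 and between 7 and 10, with 7 and 8 in each fit that left out 1 library.

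Scaling each library to epithelial genes moved the median of all genes (log2 fold change) from 0.01 to -1.05 and the calls from 825 lower and 1204 higher to 6255 lower and 434 higher. Under it Smtn was at -0.075 (adjusted p = 0.830), Tsg101 at -0.77 (adjusted p = 0.0521) and Krt14 at 0.67 (adjusted p = 0.120), Lmod1 was called lower (-1.48), and 36 genes of the contractile control list were called lower. Scaling to the total count alone, without the further factor of each library, moved the median of all genes to 0.33, with 495 lower and 1864 higher, and 5 genes of the control list were called higher.

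Of the control list, 8 genes were called lower without the filter and 4 with DESeq2, and 1 was called higher with a pseudocount of 0.1, with DESeq2 and without tumors 4 and 10, and 2 with tumors of the same female summed or without the female of tumors 8, 9 and 10. Leaving out single libraries gave between 2 and 7 lower, the highest without gland 3, and between 0 and 3 higher, the highest without gland 2.

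Leaving out single libraries gave log2 fold changes of Krt14 between 1.56 and 1.96, with the call lost without gland 1 (1.63), of Krt5 between 2.30 and 3.24, and of Tsg101 between 0.19 and 0.40. Counts for the cell type lists moved by more than 1.5 times under some settings. Over all alternatives the mural markers had between 0 and 7 lower genes, the fibroblast markers between 1 and 7, the endothelial markers between 5 and 10 and the basal identity markers between 3 and 12 higher and between 0 and 5 lower ones. The luminal markers had 1 to 3 higher and 0 to 6 lower.

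Tumors and glands share the label numbers 1 to 3. With this number as a replicate block, which leaves 3 tumors in the contrast, Krt5 was at 2.52 (adjusted p = 0.139) and Krt14 at 1.72 (adjusted p = 0.210), and Myl9 and Tagln were not called (adjusted p = 0.0646 and 0.0650). The deviations of samples with the same number had correlations of -0.58, 0.04 and -0.66 across genes, which are not independent replicates, and no pairing was taken from the numbers. The small number of glands and their spread limited the precision, as did depth for Actg2, Cnn1 and Myh11, of which at least 1 tumor held fewer than 20 reads.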
